A study of Mus musculus with 49 samples.

Results

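The genes described are 9 of the CC chemokine system, 7 ligands (Ccl2, Ccl3, Ccl4, Ccl5, Ccl7, Ccl8 and Ccl12) and 2 receptors (Ccr1 and Ccr2), measured in 49 CT26 tumours. They were chosen by symbol, and all 9 were found among the 39179 genes of the raw count table and passed the filter on low counts. CT26 is a colorectal carcinoma line of Balb/c origin, and the tumours grew in Balb/c mice.

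Treatment began 7 days after tumour cells were injected and ran for 7 days, per the labels. Vehicle, a DMSO and PEG400 mixture in water, was given in 9 tumours. Celecoxib, which blocks the enzyme COX-2 and so the making of prostaglandins, was given daily at 30 mg/kg in 7. Anti-PD-1, an antibody against an inhibitory receptor of T cells, was given in 2 doses of 200 µg in 17, and anti-PD-1 plus celecoxib, here the combination, in 16. Each tumour is labelled R or NR, terms that the labels do not define. All vehicle and celecoxib tumours are NR, as are 13 of 17 under anti-PD-1 and 4 of 16 under the combination. The tissue label says day 7 of treatment and the extraction protocol says day 4, and the labels do not state that each tumour came from a separate animal, so p-values reflect only how these samples spread, which may be technical.

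CC chemokines are small secreted proteins with a pair of neighbouring cysteines near the start of the mature protein, and they steer white blood cells that carry matching G protein-coupled receptors. Ccl2, Ccl7 and Ccl12 attract monocytes through Ccr2, the receptor that brings classical monocytes from bone marrow and blood into tumours. Ccl3, Ccl4 and Ccl5 are made by activated macrophages and by T and NK cells, and Ccl3 and Ccl5 act through Ccr1, which also binds Ccl7. In the mouse, Ccl8 acts through Ccr8.

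On GRCm38 the ligand genes lie in a pair of neighbourhoods on chromosome 11. Ccl2 (82035571 to 82037453), Ccl7 (82045712 to 82047525), Ccl12 (82101845 to 82103400) and Ccl8 (82115185 to 82116799) lie in this order on the plus strand, with a gap of 54319 bases before Ccl12. Ccl5 (83525778 to 83530518, minus strand), Ccl3 (83647844 to 83649355, minus strand) and Ccl4 (83662584 to 83664683, plus strand) lie further along. The receptor genes lie 133257 bases apart on chromosome 9, with Ccr1 at 123962124 to 123968692 on the minus strand and Ccr2 at 124101950 to 124113557 on the plus strand. All 9 are annotated as protein coding.

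The family signature is visible in the coding sequence of the ligands. The stretches below are 30 coding bases of the GENCODE transcripts on GRCm38, 5′ to 3′, with the neighbouring cysteine codons in capitals.
Ccl2: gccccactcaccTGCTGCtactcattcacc
Ccl7: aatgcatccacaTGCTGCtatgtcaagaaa
Ccl12: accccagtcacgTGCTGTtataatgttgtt
Ccl8: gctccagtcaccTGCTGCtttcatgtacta
Ccl4: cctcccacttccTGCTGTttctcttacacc
Ccl5: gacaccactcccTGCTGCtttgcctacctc
Each ligand has 1 such pair, with the first cysteine at codon 32 to 34. Aligned coding sequences were 68.1% identical between Ccl3 and Ccl4. Identity was 64.7% between Ccl7 and Ccl8, 64.4% between Ccl8 and Ccl12 and 63.2% between Ccl7 and Ccl12. Despite this kinship, the longest exact run shared by any 2 of the 7 ligand transcripts was 23 bases, between Ccl2 and Ccl7. An antisense gene, Gm17268, overlaps Ccl2 and had no count in any library.

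Ccl12 and Ccl8 are adjacent genes whose counts followed different courses over the tumours, described under the ligand and receptor comparison. The 120 bases before their RefSeq start sites (GRCm38.p6, plus strand) are shown for that reason, with the letters TATAAA in capitals, at chr11:82101725-82101844 for Ccl12 and chr11:82115065-82115184 for Ccl8.
Ccl12: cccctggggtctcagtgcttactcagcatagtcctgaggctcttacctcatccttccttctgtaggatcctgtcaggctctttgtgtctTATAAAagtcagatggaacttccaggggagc
Ccl8: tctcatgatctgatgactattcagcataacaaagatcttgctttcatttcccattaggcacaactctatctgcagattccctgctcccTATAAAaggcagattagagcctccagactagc
The TATAAA letters begin 31 bases before the start of Ccl12 and 32 before that of Ccl8. They occur, on either strand, in 13.6% of 32851 RefSeq promoter windows of 300 bases. The part of the upstream bases in the different courses of the pair was not tested.

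Total counts ranged from 4251251 to 13671294 per library, with a median of 7670623. In 11 libraries the genes of skeletal muscle were high, in celecoxib 3 together with those of skin. These libraries were celecoxib 1 and 3, anti-PD-1 3, 9, 14, 15 and 16, and combination 7, 13, 14 and 15. By label they make up 4 of 12 combination R tumours, 0 of 4 combination NR, 2 of 4 anti-PD-1 R and 3 of 13 anti-PD-1 NR, and none with vehicle. Combination 2 (NR) and vehicle 7 lay just under the muscle limit of 3 (mean log2 CPM), at 2.92 and 2.73. No library passed the limit of 5 (mean log2 CPM) for fat genes. Vehicle 6 came nearest at 4.85 and was not counted among these libraries. It also held the highest Ccl4 of the vehicle tumours, 56.8 CPM. Tumour numbers only name the samples. Levels are CPM, counts scaled to a TMM-normalised library size, and fold changes are log2 values from edgeR's quasi-likelihood test with their standard error (SE) and an adjusted p (Benjamini-Hochberg over all genes tested, limit 0.05). In bulk RNA, fewer cells of a type and less RNA per cell cannot be told apart.

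Ccl4, the macrophage inflammatory protein 1β, was higher with the combination than with anti-PD-1 alone. Under anti-PD-1 alone Ccl4 had a lowest level of 4.71 CPM, a median of 14.3 and a highest of 88.4, and under the combination 6.70, 44.9 and 248. The groups overlapped, but 14 of 16 combination tumours lay above the anti-PD-1 median and 4 lay above every anti-PD-1 tumour. The means were 72.3 ± 68.7 (SD, n = 16) and 22.8 ± 20.8 (SD, n = 17). Ccl4 rose by 1.67 (SE 0.40, edgeR adjusted p = 0.0373), and no other of the 9 genes passed the limit, against 0.503% of all 13726 genes tested.

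That call lay close to the limit. Over the 7 other settings tried, the adjusted p of Ccl4 ran from 0.00666 with DESeq2 to 0.298 without the 11 libraries with other tissue, and 3 of the 7 made the call. Without those libraries the Ccl4 difference fell to 1.08 (SE 0.45), and the tumours left out included combination 13 and 14, with 165 and 248 CPM. Leaving out 1 library at a time kept the difference between 1.42 (without combination 14) and 1.94 (without anti-PD-1 2), and the call was made in 16 of 33 such fits. It was lost without anti-PD-1 3, 4, 5, 7, 8, 9, 13, 14, 15 or 16, and without combination 1, 4, 9, 11, 13, 14 or 16.

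The 2 groups also differ in their response labels, with 12 of 16 tumours R under the combination and 4 of 17 under anti-PD-1. Among NR tumours alone Ccl4 had a mean of 19.7 ± 12.4 CPM (SD, n = 4) under the combination and 21.5 ± 21.5 CPM (SD, n = 13) under anti-PD-1. Of these 4 combination tumours 2 lay above the anti-PD-1 NR median and 0 above the highest. The difference was -0.10 (SE 0.61, edgeR adjusted p = 0.988). Among R tumours the means were 89.9 ± 71.1 CPM (SD, n = 12) and 26.9 ± 20.8 CPM (SD, n = 4), a difference of 1.73 (SE 0.67, edgeR adjusted p = 0.658), and 7 of the 12 lay above all 4 anti-PD-1 R tumours. No member passed among NR tumours, where 0.0281% of 14247 genes were called, or among R tumours, where 0% were. The gap between the 2 differences equals the contrast of R minus NR between the treatments given further on, which did not pass either.

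Ccl3, the macrophage inflammatory protein 1α and nearest coding relative of Ccl4, had almost the same estimate. Its lowest, median and highest levels were 0.62, 4.39 and 43.1 CPM under anti-PD-1 and 1.79, 17.4 and 107 CPM under the combination. Here too 14 of 16 combination tumours exceeded the anti-PD-1 median, and 3 exceeded the highest anti-PD-1 tumour. The difference of 1.64 (SE 0.49) did not pass with edgeR (adjusted p = 0.0884), and did with DESeq2 (1.64, SE 0.48, adjusted p = 0.0383). It also passed with edgeR without anti-PD-1 2, which held the highest Ccl3 of its group, and without combination 15. Counts of Ccl3 were low, from 5 to 897 reads per tumour.

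Ccl5, or RANTES, which T and NK cells release along with their cytotoxic granules, had a median of 48.4 CPM under anti-PD-1 (12.5 to 397) and 85.3 under the combination (27.3 to 518). Ccl8 had medians of 469 CPM (244 to 2168) and 883 CPM (225 to 3214). Both spread over more than a 10-fold range within the combination, and the differences of 0.85 (SE 0.41) for Ccl5 and 0.73 (SE 0.34) for Ccl8 did not pass the limit (edgeR adjusted p = 0.28 and 0.251). Of the 16 combination tumours, 13 exceeded the anti-PD-1 median for Ccl5 and 12 for Ccl8.

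**Figure D1:**
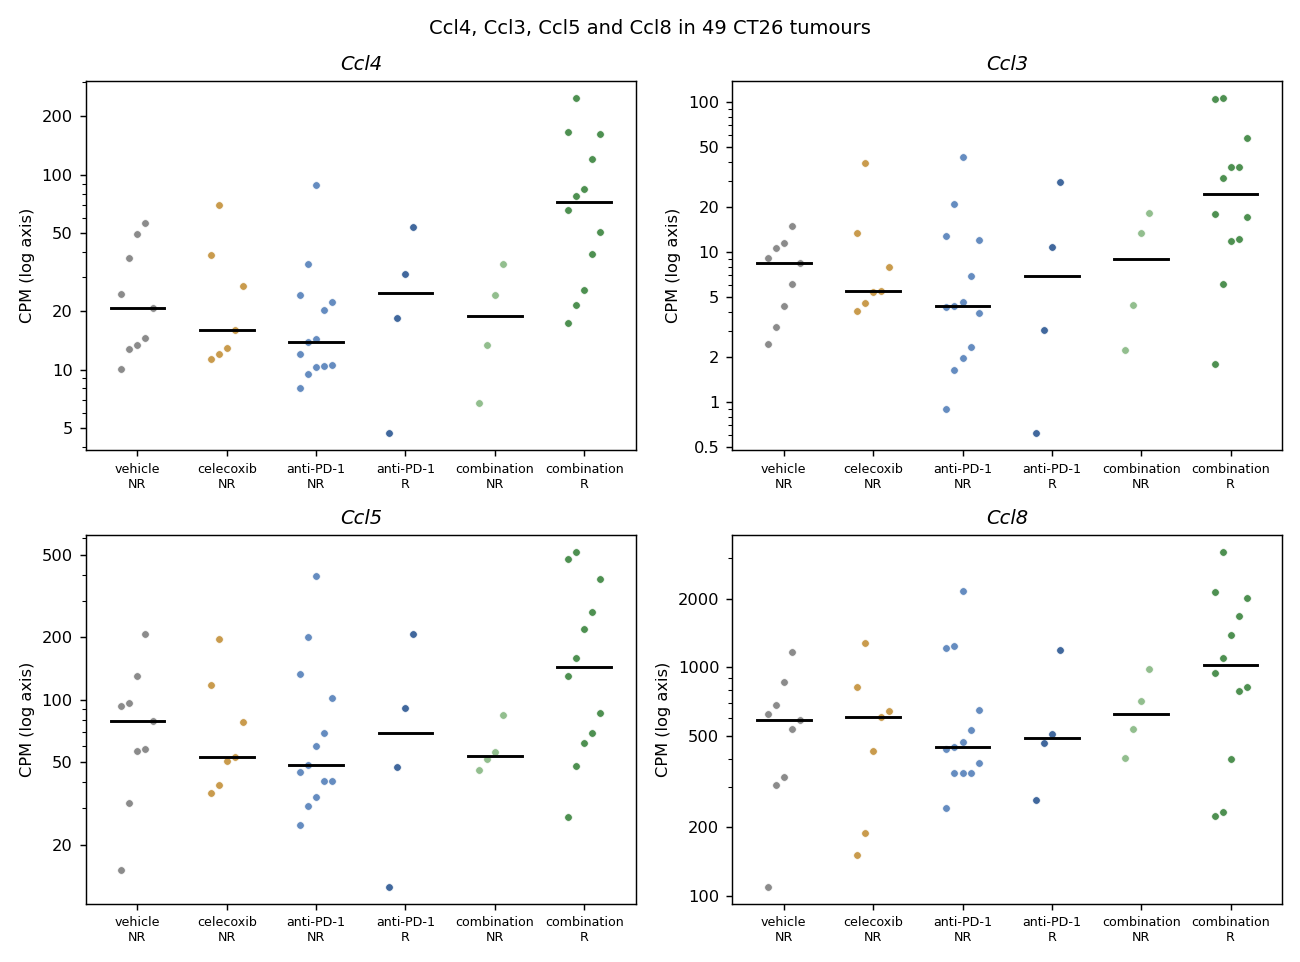
CPM on a log axis for Ccl4, Ccl3, Ccl5 and Ccl8, 1 point per tumour, in 6 groups by treatment and response label, with a bar at the median. The combination tumours labelled R reach the highest values of each gene, 248 CPM for Ccl4 and 107 CPM for Ccl3, and overlap the other groups.

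The monocyte-attracting ligands had smaller estimates. Ccl2 had medians of 117 CPM under anti-PD-1 (41.8 to 354) and 142 under the combination (44.6 to 682), a difference of 0.33 (SE 0.29). Ccl7 differed by 0.34 (SE 0.30), with medians of 99.8 and 87.4 CPM, and Ccl12 by -0.12 (SE 0.35), with medians of 77.1 and 69.7 CPM. Combination 13 alone held the highest Ccl2 and Ccl7 of all 49 tumours, 682 and 465 CPM, and without it both differences shrank to 0.01. None of these 3 passed the limit (edgeR adjusted p from 0.572 to 0.888).

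The receptors had narrower spreads and estimates of opposite sign. Ccr1 had medians of 18.1 CPM under anti-PD-1 (7.81 to 37.2) and 15.9 under the combination (8.13 to 33.7), a difference of -0.31 (SE 0.20, edgeR adjusted p = 0.422). Ccr2 had medians of 176 CPM (25.5 to 307) and 222 CPM (37.9 to 358), a difference of 0.37 (SE 0.22, adjusted p = 0.369). Neither receptor passed the limit.

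Over the 9 genes, 7 estimates were positive with a median of 0.37, whereas 49.6% of all genes tested were positive with a median of -0.002. Marker genes of T and NK cells and of macrophages had mostly positive estimates in the same comparison, unlike those of monocytes and neutrophils. Monocyte genes were positive for 5 of 10 (median 0.001) and neutrophil genes for 3 of 6 tested (median 0.17). Dendritic cell genes were positive for 7 of 10 (median 0.19). All 15 T and NK cell genes had positive estimates (median 1.13, none past the limit), and their summed level had a median of 384 CPM under the combination (20.5 to 1070) and 143 CPM under anti-PD-1 (9.29 to 859). Of 14 macrophage genes 11 were positive (median 0.46, none past the limit), with summed medians of 3552 CPM (767.9 to 9224) and 2139 CPM (993 to 8413). No gene of either list was at 0 in most tumours of any group. The part of these cells in the Ccl4 result was not tested.

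**Figure D2:**
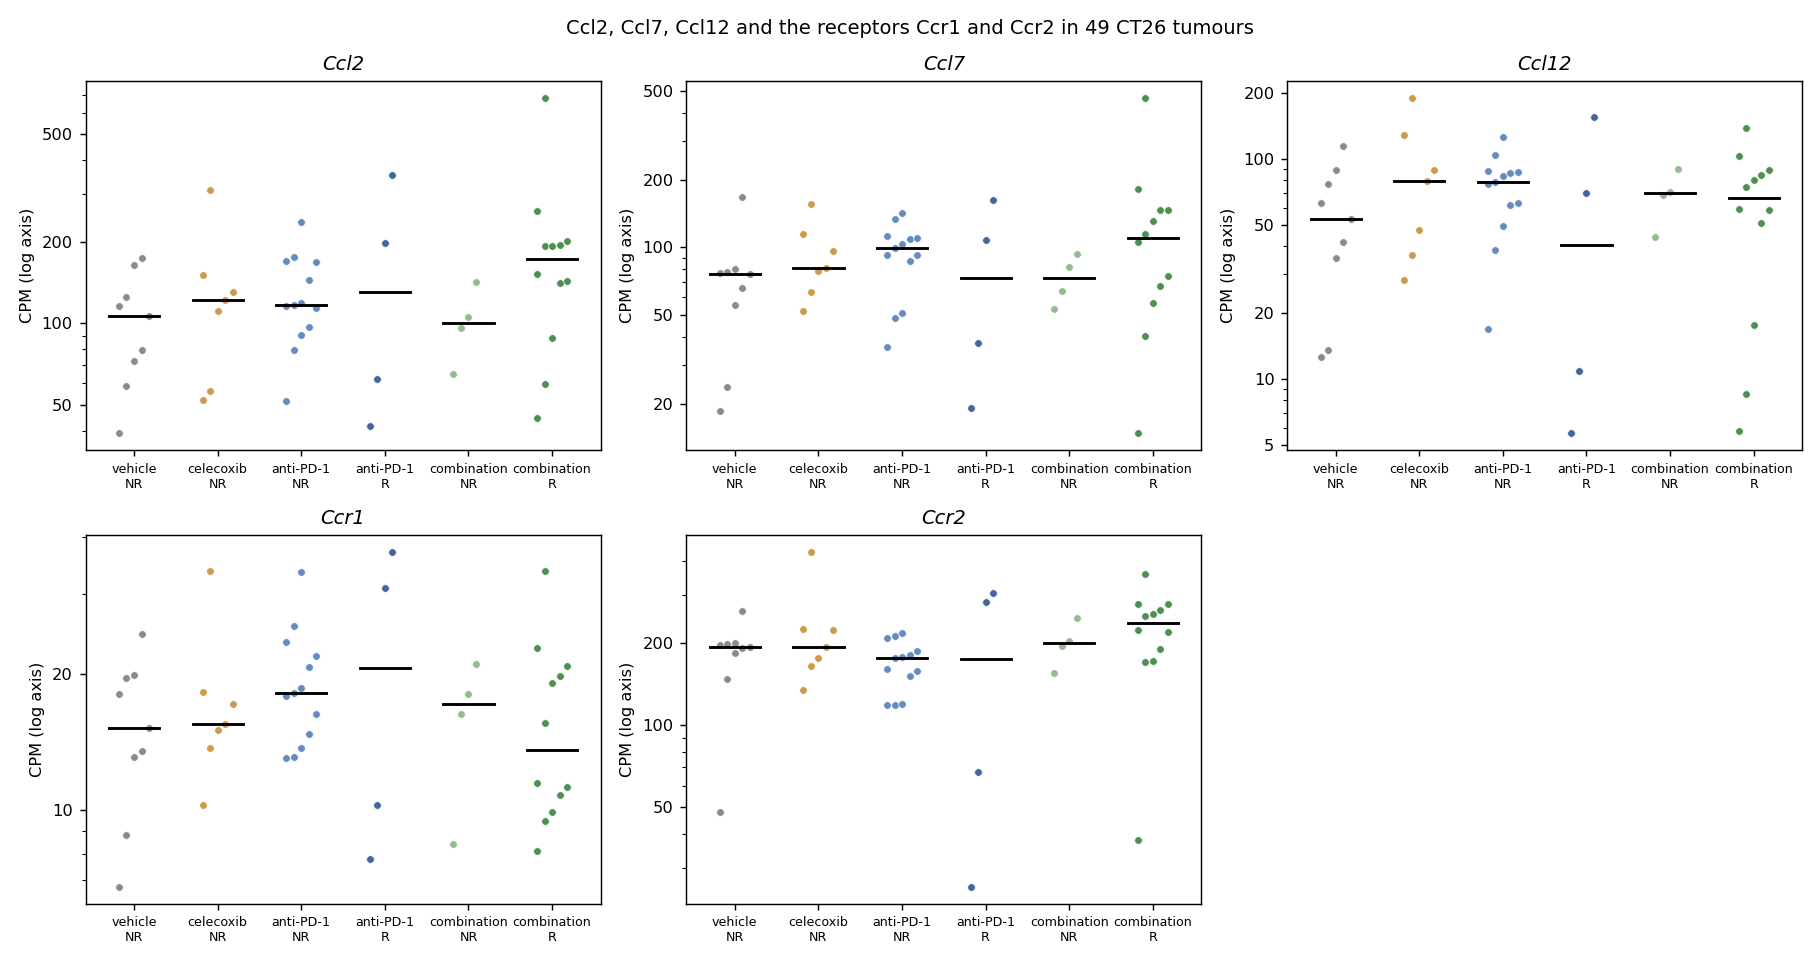
CPM on a log axis for Ccl2, Ccl7, Ccl12 and the receptors Ccr1 and Ccr2, 1 point per tumour, in 6 groups by treatment and response label, with a bar at the median. Groups overlap for every gene, and the 4 anti-PD-1 tumours labelled R split into 2 low and 2 high for Ccr2, from 25.5 to 307 CPM.

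Against vehicle, the combination gave a similar order of estimates without a call. Ccl3 had 2.45, 8.50 and 14.8 CPM as lowest, median and highest level with vehicle, and 9 of 16 combination tumours exceeded the highest vehicle tumour. Its difference of 1.93 (SE 0.63, edgeR adjusted p = 0.178) was the largest of the 9, followed by Ccl4 with 1.45 (SE 0.50, adjusted p = 0.186), Ccl5 with 0.97 (SE 0.51), Ccl8 with 0.92 (SE 0.42) and Ccl2 with 0.73 (SE 0.36). Ccl7 gave 0.69 (SE 0.37), Ccr2 0.28 (SE 0.26), Ccl12 0.23 (SE 0.42) and Ccr1 0.05 (SE 0.24). All 9 estimates were positive, 0 passed the limit with edgeR, DESeq2 or limma-voom, and 4 had an unadjusted p under 0.05 (Ccl2, Ccl3, Ccl4 and Ccl8). Of all genes, 0.0729% were called and 15.4% had an unadjusted p under 0.05. Without the libraries with other tissue, which include 4 of 16 combination tumours and no vehicle tumour, 355 genes were higher and 278 lower of 13615 tested, against 6 and 4 of 13726, and still 0 of the 9 passed. Ccl3 was then 1.68 (SE 0.66), Ccl4 1.02 (SE 0.50), Ccl8 0.96 (SE 0.45), Ccl2 0.46 (SE 0.27) and Ccr1 -0.08 (SE 0.21). Without combination 13 alone Ccl2 was 0.40, Ccl7 0.35 and Ccr1 -0.07. T and NK cell genes were positive for 15 of 15 (median 1.06) and macrophage genes for 13 of 14 (median 0.54). Neutrophil genes were positive for 6 of 6 tested (median 0.52), dendritic cell genes for 8 of 10 (0.29) and monocyte genes for 6 of 10 (0.10). None of these marker genes passed the limit, and their part was not tested. Comparisons with the same vehicle or combination tumours share those samples.

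Neither agent alone was accompanied by a called change of the 9 genes. With anti-PD-1 against vehicle the estimates ran from -0.23 (SE 0.47) for Ccl4 and -0.10 for Ccr2 through 0.13 for Ccl5, 0.19 for Ccl8 and 0.29 for Ccl3 to 0.35 for both Ccl7 and Ccl12, 0.36 for Ccr1 and 0.40 (SE 0.35) for Ccl2. With celecoxib against vehicle they ran from -0.06 (SE 0.60) for Ccl5, 0.02 for Ccl8 and 0.03 for Ccl4 through 0.19 for Ccr1 and 0.29 for Ccr2 to 0.36 for both Ccl2 and Ccl7, 0.58 for Ccl3 and 0.62 (SE 0.50) for Ccl12. In both comparisons 0 of 9 passed with edgeR, DESeq2 or limma-voom and 0 had an unadjusted p under 0.05, against backgrounds of 0.0874% and 0% of genes called. The SE of these estimates was largest for Ccl3, at 0.59 with anti-PD-1 and 0.71 with celecoxib.

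Combination against celecoxib gave 1.42 (SE 0.55) for Ccl4 and 1.35 (SE 0.67) for Ccl3, which were the 2 of 9 genes with an unadjusted p under 0.05, as 4.92% of all genes had. The other estimates were 1.04 for Ccl5, 0.90 for Ccl8, 0.37 for Ccl2, 0.33 for Ccl7, -0.02 for Ccr2, -0.14 for Ccr1 and -0.39 for Ccl12. Without the libraries with other tissue Ccl4 and Ccl3 were 0.86 and 0.87, and none of the 9 had an unadjusted p under 0.05. None passed with edgeR, DESeq2 or limma-voom (edgeR adjusted p = 0.918 for both), and 0.0364% of all genes were called. The celecoxib effect with anti-PD-1 minus that without was 1.64 (SE 0.71) for Ccl4, the 1 gene of the 9 with an unadjusted p under 0.05 (p = 0.0251 with edgeR), as 3.01% of all genes had. It was 1.06 for Ccl3, 0.91 for Ccl5, 0.70 for Ccl8, 0.08 for Ccr2, -0.02 for Ccl7, -0.03 for Ccl2, -0.50 for Ccr1 and -0.74 for Ccl12. Without the libraries with other tissue it was 0.92 (SE 0.77) for Ccl4 and -0.72 (SE 0.32) for Ccr1. Ccr1 was then the 1 gene of the 9 with an unadjusted p under 0.05 (p = 0.0313 with edgeR), as 2.49% of all genes had. In that interaction 0 of 9 genes passed with any of the 3 tools, and 0% of all genes were called with edgeR. The difference in the celecoxib effect between the antibody backgrounds is therefore not shown.

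**Figure D3:**
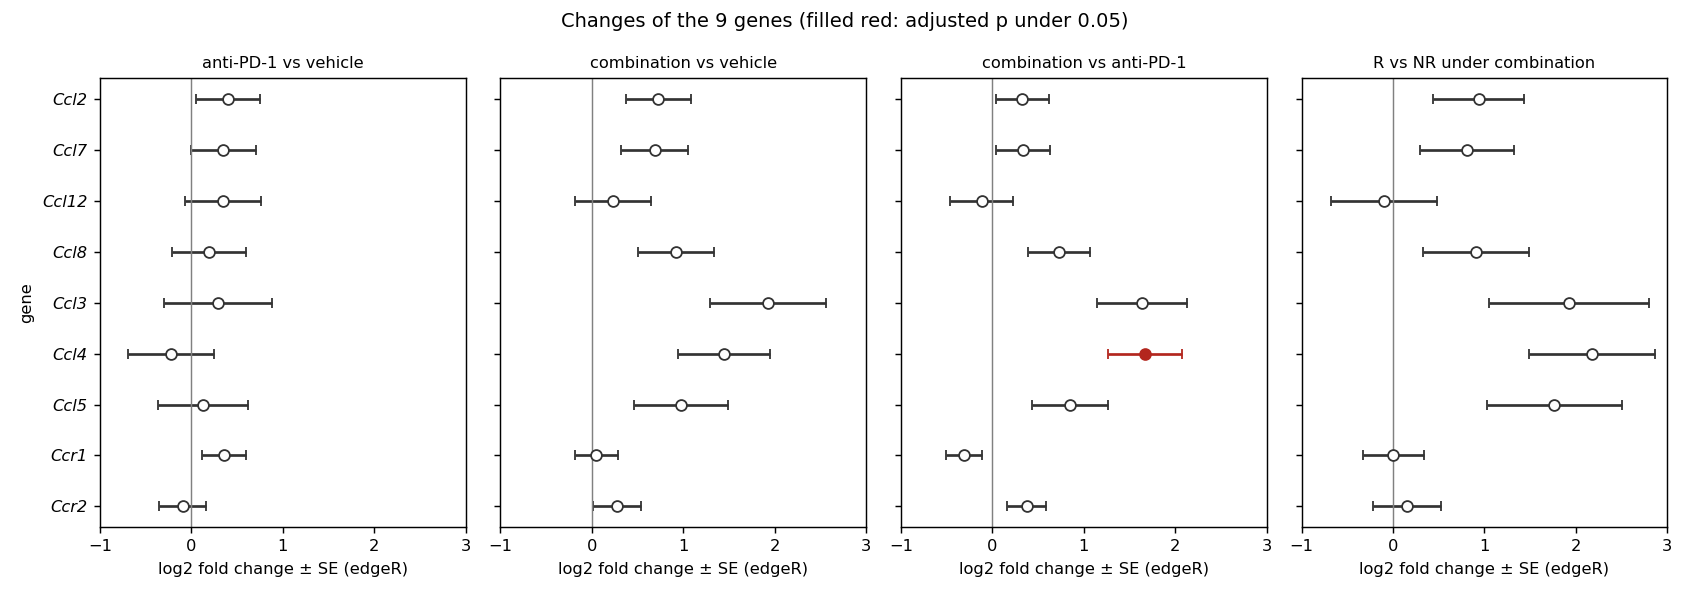
The log2 fold change (edgeR) with its SE for the 9 genes in 4 comparisons, with filled red points for an adjusted p under 0.05. Ccl4 in the combination against anti-PD-1, at 1.67, is the only filled point, and Ccl3 lies beside it at 1.64.

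Within the combination, tumours labelled R had more Ccl4 than those labelled NR in most cases. The 4 NR tumours had 6.70, 13.3, 24.1 and 34.8 CPM, and the 12 R tumours had 17.4 CPM as the lowest, 72.2 as the median and 248 as the highest. In 9 of 12 R tumours Ccl4 lay above all 4 NR tumours, and 11 of 12 lay above the NR median. The difference was 2.17 (SE 0.69) with an edgeR adjusted p of 0.409.

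Ccl3 and Ccl5 followed with 1.92 (SE 0.87) and 1.76 (SE 0.74). The NR tumours had 2.23, 4.44, 13.4 and 18.1 CPM of Ccl3, and 6 of 12 R tumours lay above them. For Ccl5 they had 45.8, 51.6, 55.9 and 84.5 CPM, and 8 of 12 R tumours lay above them, with R values up to 518 CPM. Ccl2, Ccl8 and Ccl7 gave 0.94 (SE 0.50), 0.91 (SE 0.58) and 0.81 (SE 0.51). Without combination 13 Ccl2 was 0.56 and Ccl7 0.41. Ccl12 gave -0.10 (SE 0.58), Ccr1 0.01 (SE 0.33) and Ccr2 0.16 (SE 0.37). Without the libraries with other tissue, which are 4 R tumours and no NR tumour, Ccl4 was 1.83 (SE 0.69), Ccl3 1.75 (SE 0.91) and Ccl5 1.66 (SE 0.77).

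None of these R against NR differences passed the limit with edgeR, DESeq2 or limma-voom, 3 of 9 had an unadjusted p under 0.05 (Ccl3, Ccl4 and Ccl5), and 0% of 14247 genes were called with edgeR, where 9.11% had an unadjusted p under 0.05. T and NK cell genes were positive for 15 of 15 (median 1.33, none past the limit), with summed levels of 75.3 to 381 CPM in the NR tumours and 20.5 to 1070 CPM in the R tumours. Positive estimates also came from 5 of 6 neutrophil genes tested (median 1.15), 7 of 10 dendritic cell genes (0.54), 10 of 14 macrophage genes (0.38) and 9 of 10 monocyte genes (0.35), none past the limit. Their part in these estimates was not tested.

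Under anti-PD-1 alone the labels separated little. The 4 R tumours had 4.71, 18.4, 31.01 and 53.6 CPM of Ccl4, which spans most of the NR range of 8.06 to 88.4 CPM. Estimates ran from -0.30 (SE 0.59) for Ccl12, -0.21 for Ccl7, -0.16 for Ccl8 and -0.07 for Ccl5 through 0.01 for Ccr2 and 0.15 for Ccr1 to 0.28 for Ccl3, 0.33 for Ccl2 and 0.35 (SE 0.59) for Ccl4. Of the 9, 0 passed with edgeR, DESeq2 or limma-voom, 0 had an unadjusted p under 0.05, and 0% of genes were called. For Ccl12 the R tumours had 5.66, 10.9, 70.1 and 155 CPM, and the SD of log2 CPM was 2.21 among them against 0.74 among the 13 NR tumours, whereas for Ccl8 it was 0.90 and 0.91. Anti-PD-1 14 and 15, 2 of the 4 R tumours, are libraries with other tissue. Without anti-PD-1 17 Ccl3 was -0.89 and Ccl4 -0.24, and without anti-PD-1 15 Ccl12 was -1.34 and Ccl2 -0.36. Without all libraries with other tissue Ccl12 was -0.98 (SE 0.68) and Ccl4 0.65 (SE 0.76). Macrophage genes were positive for 2 of 14 (median -0.37), dendritic cell genes for 1 of 10 (-0.42) and T and NK cell genes for 7 of 15 (-0.07). Monocyte genes were positive for 9 of 10 (0.28) and neutrophil genes for 5 of 6 tested (0.26). None of these marker genes passed the limit, and their part was not tested here either.

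Averaged over both antibody groups, R minus NR was 1.26 (SE 0.44, edgeR adjusted p = 0.173) for Ccl4 and 1.10 (SE 0.56) for Ccl3. Without anti-PD-1 17 Ccl3 fell to 0.52 and Ccl5 to 0.43, and without the libraries with other tissue Ccl4 was 1.24 (SE 0.50) and Ccl3 1.26 (SE 0.66). The other estimates were 0.85 for Ccl5, 0.63 for Ccl2, 0.37 for Ccl8, 0.30 for Ccl7, 0.08 for both receptors and -0.20 for Ccl12. None of the 9 passed with edgeR, DESeq2 or limma-voom, where 0.0491% of genes were called. An unadjusted p under 0.05 was seen for 1 of 9 (Ccl4) and for 14% of all genes. In this average T and NK cell genes were positive for 15 of 15 (median 0.595) and monocyte genes for 9 of 10 (0.385). Macrophage genes were positive for 7 of 14 (-0.009), dendritic cell genes for 6 of 10 (0.06) and neutrophil genes for 5 of 6 tested (0.706). Of these marker genes 1 neutrophil gene was called lower, and their part was not tested. The R minus NR difference was larger under the combination than under anti-PD-1 by 1.83 for both Ccl4 (SE 0.90) and Ccl5 (SE 0.98), 1.64 for Ccl3, 1.07 for Ccl8, 1.02 for Ccl7, 0.60 for Ccl2, 0.20 for Ccl12 and 0.15 for Ccr2, and smaller for Ccr1 (-0.14). That contrast passed for 0 of 9 genes with any of the 3 tools and for 0% of all genes with edgeR, with an adjusted p of 0.999 for all 9 genes and 1 unadjusted p under 0.05 (Ccl4), as 2.31% of all genes had.

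Ligand and receptor levels were then compared tumour by tumour, as deviations of log2 CPM from the mean of each treatment, over 7 ligands and 2 receptors. Of the 14 pairs, 10 passed a permutation test within treatments (100000 resamples, two-sided, adjusted over 21 pairs computed), both for Pearson's r and for Spearman's rho. The 4 pairs that did not pass were Ccr1 with Ccl8, Ccl3, Ccl4 and Ccl5. The 95th percentile of r over all genes compared was 0.507 with Ccr1 and 0.675 with Ccr2, and 4 of the 7 pairs with Ccr2 that passed lay below it.

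Ccr1 varied with the monocyte-attracting ligands. Its r was 0.743 with Ccl2 (rho 0.672), 0.703 with Ccl12 (rho 0.757) and 0.679 with Ccl7 (rho 0.606), each with an adjusted permutation p of 1.91e-05 for r and 2.1e-05 for rho. These raw p-values of 1e-05 are the smallest that the resamples can give. Among 11296 genes compared with Ccr1 in the same way, the median r was 0.036, and 0.115% had a higher r than Ccl2.

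Ccl7 is also one of its own ligands. Its r with Ccl3 and Ccl5, which it binds too, was lower. It was 0.202 with Ccl3 (rho 0.121, permutation p = 0.182 for r and 0.427 for rho) and 0.259 with Ccl5 (rho 0.150, permutation p = 0.0847 and 0.322). It was 0.177 with Ccl8 (rho 0.100) and 0.152 with Ccl4 (rho 0.054). Of all compared genes 25% had a higher r with Ccr1 than Ccl5, and 37.3% a higher r than Ccl4. The difference between the 2 sets of correlations was not itself tested.

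Ccr2 varied with all 7 ligands. It had an r of 0.721 with Ccl12 (rho 0.602), 0.717 with Ccl2 (rho 0.721) and 0.701 with Ccl7 (rho 0.707), its own ligands, and from 0.458 with Ccl4 to 0.623 with Ccl5 for the others. High r was common for this receptor. Of all compared genes, 3.59% had a higher r with Ccr2 than Ccl12, its highest ligand, 3.77% than Ccl2 and 4.29% than Ccl7. For the other 4 ligands the share was 6.61% (Ccl5), 8.45% (Ccl8), 9.35% (Ccl3) and 13% (Ccl4).

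**Figure D4:**
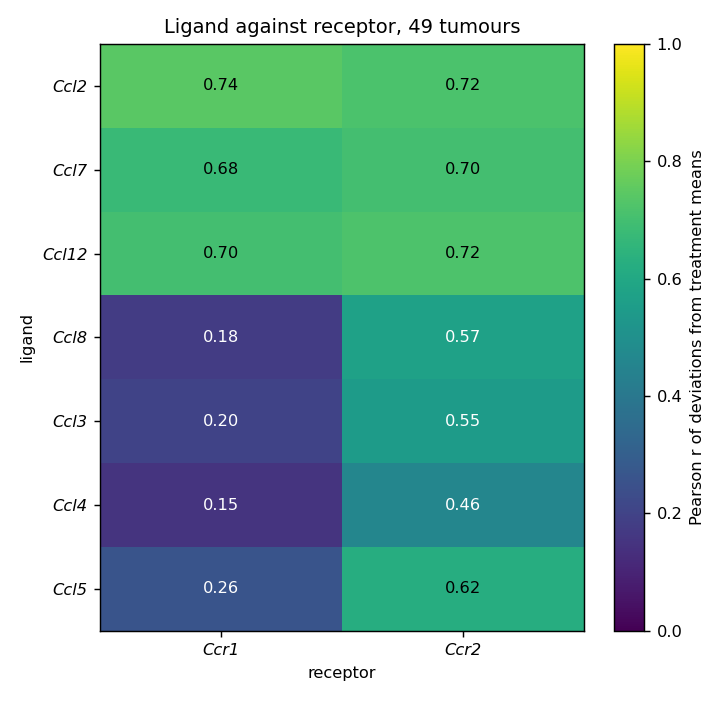
Pearson r between each ligand (rows) and receptor (columns) over 49 tumours, from deviations of log2 CPM from treatment means. The values for Ccr1 fall from 0.68 to 0.74 with Ccl2, Ccl7 and Ccl12 to 0.15 to 0.26 with the other 4 ligands, and those for Ccr2 lie between 0.46 and 0.72.

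All 14 pairs kept their side of the limit without their 2 farthest tumours and without the libraries with other tissue. Ccl3, Ccl4 and Ccl5 had an r with Ccr1 of -0.035, -0.145 and 0.084 without those libraries. Within single treatments 25 of 56 values passed. The r of Ccr1 with Ccl2 was 0.817 in vehicle tumours, 0.925 in celecoxib, 0.880 in anti-PD-1 and 0.543 in combination tumours. In the combination it did not pass (adjusted permutation p = 0.0581). Without the 2 tumours farthest from the Ccr1 median of each treatment these values were 0.392, 0.766, 0.785 and 0.103. Ccl12 with Ccr1 did not pass in the combination either (r 0.457, adjusted permutation p = 0.119), and was 0.145 without those 2 tumours. Ccl7 with Ccr1 passed there (r 0.557, adjusted permutation p = 0.0467), but was 0.089 without them. The r of Ccr2 with Ccl2 was 0.813, 0.884, 0.760 and 0.623 in the same order, and it passed in each. Without the 2 tumours farthest from the Ccr2 median these values were 0.703, 0.495, 0.637 and 0.494, and rho in the 7 celecoxib tumours did not pass (0.750, adjusted exact permutation p = 0.139). Groups of 9 and 7 were tested with exact permutation of pairings.

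**Figure D5:**
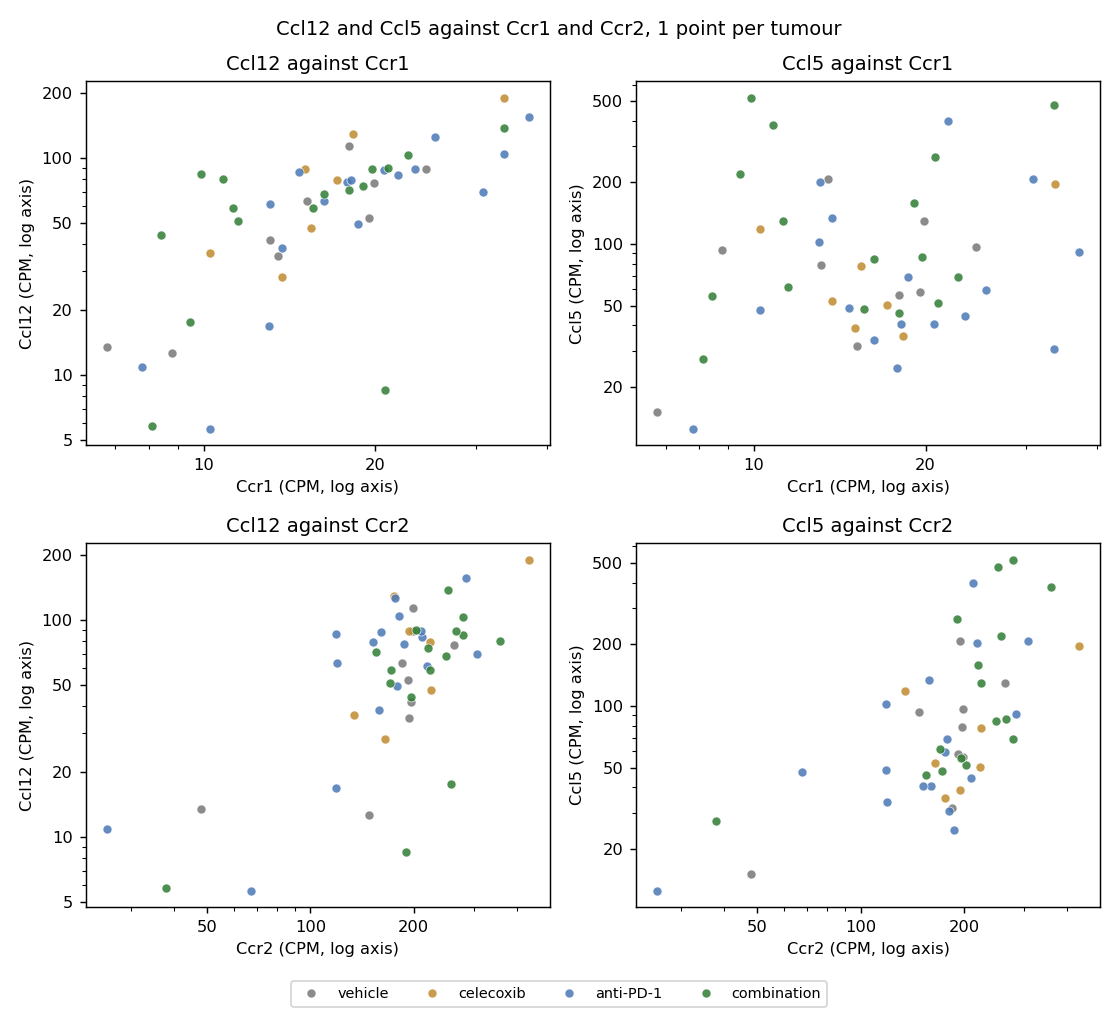
CPM of Ccl12 (left) and Ccl5 (right) against Ccr1 (top) and Ccr2 (bottom), log axes, 1 point per tumour coloured by treatment. Ccl12 rises with Ccr1 (r 0.703) and with Ccr2 (r 0.721), and Ccl5 with Ccr2 (r 0.623), whereas Ccl5 is scattered against Ccr1 (r 0.259).

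The ligands themselves fell into the same 2 sets, given here as a description over 49 tumours that share library and depth effects. Ccl7 had an r of 0.883 with Ccl12 and 0.878 with Ccl2. Ccl5 had an r of 0.894 with Ccl3, 0.862 with Ccl8 and 0.783 with Ccl4, and Ccl3 of 0.852 with Ccl4. Across the sets the values were lower, from 0.525 between Ccl2 and Ccl3 down to 0.004 between Ccl12 and Ccl4. Ccl2 also had 0.503 with Ccl4 and 0.483 with Ccl5, and the lowest value within a set was 0.651, between Ccl8 and Ccl4. Neighbours in the genome did not always pair. Ccl12 and Ccl8, whose upstream bases are printed above, had an r of 0.161, and Ccl8 varied instead with Ccl5 in the other neighbourhood.

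The spread between tumours of the same treatment was widest for Ccl3, with an SD of log2 CPM of 1.47, and next for Ccl12 and Ccl5 with 1.21 each. It was narrowest for the receptors Ccr1 (0.58) and Ccr2 (0.74). A few tumours were low in most of the 9 genes. Anti-PD-1 14 and combination 15 had 7 of the 9 among the 5 lowest levels of the series, and vehicle 8 had 6. These 3 tumours also had the lowest summed macrophage levels of the 49, at 993, 767.9 and 669 CPM, and anti-PD-1 14 had the lowest T and NK cell sum, at 9.29 CPM. High tumours came from 3 treatments. Combination 13 and 16 had 7 of the 9 genes among the 5 highest, celecoxib 4 had 6, and anti-PD-1 2, anti-PD-1 15 and combination 1 had 5 each. Of the low tumours, anti-PD-1 14 and combination 15 are libraries with other tissue, as are combination 13 and anti-PD-1 15 among the high ones. The part of cell composition or of other tissue in this pattern was not tested.

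Other CC ligands and receptors were taken from a list of 17 ligands and 11 receptors that are no members. Of the 17 ligands 8 passed the filter on low counts, and in the combination against anti-PD-1 none passed the limit with edgeR, 4 had an unadjusted p under 0.05, as 17.2% of all genes had, and 3 estimates were positive. Ccl1, a Ccr8 ligand of activated T cells, gave 1.69 (SE 0.48, edgeR adjusted p = 0.0755) at low levels, with medians of 0.37 CPM under anti-PD-1 and 1.14 under the combination. Ccl24, an eotaxin, gave -0.63 (SE 0.26) and Ccl9 gave -0.29 (SE 0.13). Ccr8, the mouse receptor of Ccl8 and Ccl1, had a count in 2 tumours only and was not tested.

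Of the 11 listed receptors 5 were tested in that comparison and none passed, with 1 unadjusted p-value under 0.05. Ccr9, the gut-homing receptor, gave 0.67 (SE 0.30), and Ccrl2, a non-signalling receptor, gave 0.63 (SE 0.34). For R against NR averaged over the antibody groups none of 8 ligands and 6 receptors passed with edgeR, and 3 ligands and 2 receptors had an unadjusted p under 0.05, as 14% of all genes had. Ccl24 gave -0.72 (SE 0.28), Ccl6 0.33 (SE 0.14) and Ccl25, a Ccr9 ligand, -0.65 (SE 0.27). Ccrl2 gave 0.90 (SE 0.39) and Ackr1, a chemokine-binding receptor of venules and red cells, 1.14 (SE 0.51).

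Under anti-PD-1 alone R minus NR was -1.45 (SE 0.43, edgeR adjusted p = 0.659) for Ccl24, -0.89 (SE 0.48) for Ccl17 and -0.44 (SE 0.39) for Ccl25. Under the combination it was 0.53 (SE 0.20, edgeR adjusted p = 0.454) for Ccl6, -0.86 (SE 0.37) for Ccl25 and 1.46 (SE 0.82) for Ccl1, with 1.33 for both Ccrl2 (SE 0.59) and Ackr1 (SE 0.78). No listed ligand or receptor passed with edgeR in either.

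For each of the 9 genes, the 3 genes with the most similar log2 CPM over the 49 tumours were taken from 11288 genes with a mean of at least 2 CPM. The 9 genes themselves were left out of that search. Ccl4 was most like Tnf, the cytokine TNF (r 0.898), Cd74, the invariant chain of MHC class II (0.886), and Acod1, the itaconate-making enzyme of activated macrophages (0.885). Ccl3 was most like Acod1 (0.936), the metal transporter gene Slc11a1 (0.935) and the hexokinase gene Hk3 (0.930). Ccl5 was most like Mpeg1 (0.952), which encodes perforin-2 of macrophages, AW112010 (0.950) and Ctsh, cathepsin H (0.946). For Ccl8 they were the complement genes C3 (0.910) and C6 (0.891), and H2-DMa (0.899), a class II chaperone subunit.

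The monocyte-attracting ligands had other nearest genes. Ccl7 and Ccl12 shared Ch25h, cholesterol 25-hydroxylase, with r of 0.887 and 0.858, and Ccl2 and Ccl7 shared Lgmn, the lysosomal protease legumain, with 0.810 and 0.831. Ccl2 was further closest to Cd48 (0.849) and H2-M3 (0.828), Ccl7 to Sptlc2 (0.840), and Ccl12 to Svbp (0.905) and Gatm (0.851). Ccr2 was closest to Otulinl (0.923), Endod1 (0.917) and Tnfrsf11a, the receptor RANK (0.913). Ccr1 had the lowest values, with Pdss1 (0.789), Tgfbr2, a TGF-β receptor (0.787), and Snx2 (0.779).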

How the data were processed

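RNA of 49 CT26 tumours was read as QuantSeq 3′ FWD libraries, which count the 3′ end of transcripts, per the labels' protocols. The deposited table holds raw counts per Ensembl gene for 39179 genes, of which 37607 were given a symbol from GENCODE on GRCm38. The submitters' processing notes name bcl2fastq, STAR, featureCounts and limma, and the builds mm10 and GRCm38. Their versions, the strand setting and how multiply aligned reads were counted were not stated there. A second deposited table of log2 values was not used.

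Groups came from the labels. Counts were tested with edgeR 4.0.16 in R 4.3.3 (TMM, filterByExpr, robust quasi-likelihood, Benjamini-Hochberg over all genes tested), in 1 fit of the 4 treatments (13726 genes) and 1 of 6 groups by treatment and response label (14247 genes). Correlations used log2 CPM with a prior count of 2, in Python 3.11.15 with scipy 1.17.1. Libraries with other tissue had a mean log2 CPM over 3 for muscle genes or over 5 for skin or adipocyte genes. The scripts were checked on simulated counts. Alternatives were DESeq2 1.42.0, limma-voom (limma 3.58.1), RLE normalization, no filter, only the groups compared, a muscle covariate, removal of libraries with other tissue, and each library left out in turn. Permutation p-values were adjusted over all pairs computed, 21 over treatments and 84 within them, including 7 and 28 with an item that is not reported here. For correlations the alternatives were a prior count of 0.5, deviations from 6 group means, RLE and removal of the 2 farthest tumours. All 9 genes are named in each comparison, except within 1 response label, where only Ccl4 is named. Of the other CC genes up to 3 with the smallest p per list are named. The nearest genes leave out the 9 genes themselves, predicted genes and antigen receptor segments. Combination against anti-PD-1 among tumours of 1 response label, from the fit of 6 groups, was added after the data were seen. The genes, lists, limits and tests were chosen with earlier results of these data known. Coding stretches came from GENCODE M21 transcripts and upstream bases from RefSeq, where 5 of the 9 genes matched.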

Additional observations from a re-analysis of the deposited data

Results flagged for a closer look

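In the vehicle group the Ccr2 level of vehicle 8 lay far below the others, at 47.9 CPM against 148 CPM for the next lowest tumour. The gap was 0.663 of the range of the 9 tumours, above Dixon's critical value of 0.493. It was 1 such value in 36 groups examined, and chance gives about 1 in 20. Vehicle 8 also had the lowest summed macrophage level of the series, 669 CPM.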

How the results depend on the processing

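The number of the 9 genes called in the combination against anti-PD-1 was 1 with edgeR. It was 2 with DESeq2 (Ccl3 and Ccl4). It was 0 with limma-voom, with no filter on low counts, with only the groups compared, after removal of the libraries with other tissue, and among NR or R tumours alone. Leaving out each library in turn gave 0 to 2. For Ccl4 the adjusted p was 0.0713 with limma-voom, 0.0804 without the filter, 0.0781 with only the groups compared and 0.298 after removal of the libraries with other tissue. Its difference was -0.10 among NR tumours and 1.73 among R tumours, a comparison added after the data were seen. The cause of these changes was not tested. The other 9 comparisons called 0 of the 9 genes under every setting run. The count of ligand and receptor pairs past the limit for r was 10 of 14 under every setting run. The sign of Ccl4 among NR tumours was the only reversal of a called value among the settings run. Of estimates past no limit, 9 under the other settings and 5 with 1 library left out changed sign by over 1 SE. The DESeq2 count over all genes in the combination against anti-PD-1 was 215 higher and 82 lower, against 46 and 23 with edgeR. In the combination against vehicle it was 53 and 14 with DESeq2 and 355 and 278 without the libraries with other tissue, against 6 and 4, and in R against NR averaged over the antibody groups 97 and 61 with DESeq2, against 1 and 6. No paired analysis was possible because replicate numbers follow the order of the labels and pair no tumours. The groups of 4 tumours, and Ccl3 counts as low as 5 reads, limit what the R and NR comparisons can show.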
